A study of Homo sapiens with 8 samples.

Results

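The transcripts of 10 G protein coupled receptors that control how tightly endothelial cells hold together were examined in hCMEC/D3. This established line was derived from human brain capillary endothelium and serves for studies of the blood-brain barrier in culture. The genes were chosen by symbol, as receptors known to act on endothelial permeability, with earlier results of these data known. All 10 were found among the 23346 genes of the count table. They comprise the sphingosine 1-phosphate (S1P) receptors S1PR1, S1PR2 and S1PR3, the lysophosphatidic acid (LPA) receptor LPAR1, and the protease-activated receptors F2R and F2RL1. The adenosine receptors ADORA2A and ADORA2B, the endothelin receptor EDNRB and the histamine receptor HRH1 complete the set. Polyadenylated RNA was sequenced from 8 replicates of the line, which formed 1 group, so no conditions could be compared. The labels named no treatment, passage or culture for any replicate. They did not say whether the replicates were separate cultures, so p-values measure only the spread between these libraries, which may be technical.

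These receptors sit on the surface of endothelial cells and pass signals to different G proteins inside. Coupling to Gi, as with S1PR1, leads to activation of the small GTPase Rac and spreads the cell margins, which tightens junctions. Coupling to G12/13 and Gq, as with S1PR2, F2R and HRH1, leads to RhoA activation and calcium release, which drive actomyosin contraction and open gaps. Coupling to Gs, as with ADORA2A and ADORA2B, raises cyclic AMP, which usually strengthens the barrier. The mixture of receptors that a cell carries therefore bears on how it answers the same plasma signal.

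The RefSeq promoter table held entries for 8 of the 10 receptors, with 17 transcription starts (build GRCh38.p14). Stretches of 250 bases before the start are shown for S1PR1 and S1PR2. These bind the same ligand but lay near opposite ends of the detected range. Also shown are those for the 2 starts listed there for EDNRB, whose transcript was close to 0. Inner and outer refer to these 2 listed starts only. Capitals mark the GC box GGGCGG and the ETS core CCGGAA on either strand.
S1PR1 (chr1:101236769-101237018, plus strand): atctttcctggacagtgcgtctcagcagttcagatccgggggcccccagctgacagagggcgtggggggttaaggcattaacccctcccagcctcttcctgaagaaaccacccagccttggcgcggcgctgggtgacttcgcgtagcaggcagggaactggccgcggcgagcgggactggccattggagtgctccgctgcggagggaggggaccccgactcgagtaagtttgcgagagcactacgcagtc
S1PR2 (chr19:10231332-10231581, minus strand): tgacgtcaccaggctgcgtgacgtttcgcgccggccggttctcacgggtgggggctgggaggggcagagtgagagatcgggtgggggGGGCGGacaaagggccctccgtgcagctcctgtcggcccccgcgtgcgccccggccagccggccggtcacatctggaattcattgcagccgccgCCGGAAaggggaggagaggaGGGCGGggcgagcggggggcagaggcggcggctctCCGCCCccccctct
EDNRB, inner start (chr13:77918832-77919081, minus strand): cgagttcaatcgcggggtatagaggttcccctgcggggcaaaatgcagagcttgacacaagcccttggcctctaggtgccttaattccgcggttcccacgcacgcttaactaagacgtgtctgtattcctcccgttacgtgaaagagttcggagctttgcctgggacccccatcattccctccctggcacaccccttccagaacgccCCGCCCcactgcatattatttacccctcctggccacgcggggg
EDNRB, outer start (chr13:77919683-77919932, minus strand): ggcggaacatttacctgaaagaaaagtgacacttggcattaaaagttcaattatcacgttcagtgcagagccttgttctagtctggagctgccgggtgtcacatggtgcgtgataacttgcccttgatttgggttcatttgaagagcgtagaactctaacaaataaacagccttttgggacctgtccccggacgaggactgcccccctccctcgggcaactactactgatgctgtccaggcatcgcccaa
The S1PR2 stretch held 3 GC boxes and 1 ETS core, whereas that of S1PR1 held 0 of either. The EDNRB inner start had 1 GC box and the outer start had 0. Among 35116 stretches of the same length, 42.6% held a GC box and 14.5% an ETS core. The ratio of observed to expected CG dinucleotides was 0.70 for S1PR1, 0.81 for S1PR2, and 0.78 and 0.58 for the starts of EDNRB, against a median of 0.56 over all stretches. Among stretches not printed, the S1PR3 starts held 0 and 8 GC boxes, and the F2RL1 stretch held 2 GC boxes and 1 ETS core. A match is a description of letters, not of a bound site, and a link between matches and level was not tested.

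Total counts per library ranged from 69388544 to 90205244, and every count was even, so counting error was computed on halved counts, called read pairs here. Levels are given as CPM (the count relative to library size, scaled by the TMM method) and, between genes, as RPKM (CPM per kilobase of the canonical transcript). The third scale is the authors' CQN-normalised value, which is log2 and adjusted for gene length and GC content. All 10 endothelial markers were detected, at a summed 1898 to 3541 CPM, led by CDH5 at 649 ± 152 CPM (SD, n = 8). Of the other cell types' markers, 5 of 8 mural, 1 of 6 microglial and leukocyte, 1 of 5 neuronal, 1 of 5 epithelial and 0 of 6 astrocyte genes were detected, with AQP4 and STMN2 at 0 in all libraries. Libraries differed in how counts changed with transcript length. The slope per doubling of length (log2) was -0.23 in replicate 2, -0.11 in replicate 7 and -0.34 in replicate 8, and 0.09 to 0.15 in the other 5. The slope per 10 percentage points of GC content was 0.29, 0.10 and 0.37 in replicates 2, 7 and 8, and -0.19 to -0.10 in the others.

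Of the 10 receptors, 9 were detected, meaning at least 1 CPM in all 8 libraries, against 51.3% of all genes in the table. EDNRB was the receptor that was not. Because the set was chosen with earlier results of these data known, the contrast with all genes is a description only. In RPKM the order of mean levels was S1PR1, F2R, F2RL1, ADORA2B, HRH1, LPAR1, ADORA2A, S1PR3, S1PR2 and EDNRB. S1PR1 and F2R were first and second in each of the 8 libraries and together made up 70.5% ± 3.37 of the RPKM summed over the 10 receptors (SD, n = 8; range 64.8% to 73.2%). The median detected gene had a mean of 11.4 RPKM, which placed S1PR1, F2R and F2RL1 above it and the other 7 receptors below.

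**Figure D1:**
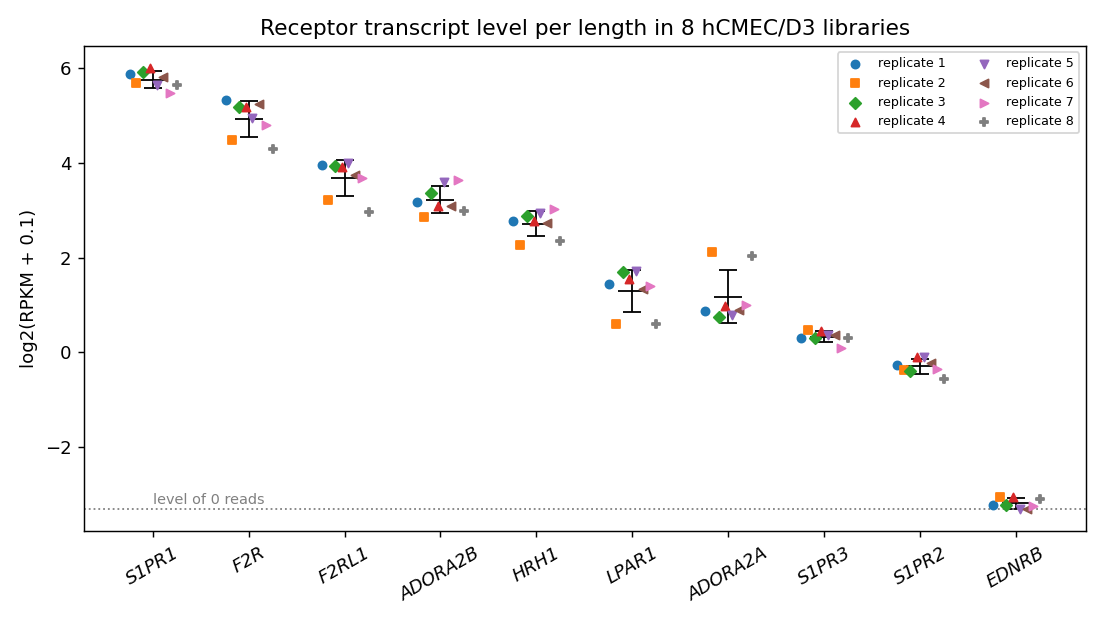
Level of each receptor as log2(RPKM + 0.1) on the vertical axis, with 1 symbol per replicate library and black bars for the mean ± SD of 8 libraries. S1PR1 is the highest in every library, ADORA2A stands higher in replicates 2 and 8 than in the other 6, and EDNRB lies near the level of 0 reads.

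S1PR1 carries the barrier-protecting signal of plasma S1P. S1PR1 (chromosome 1, 101702305 to 101707076, plus strand; 2 exons, 1 of them coding; GRCh37) had 44.2 RPKM in the lowest library, a median of 54.2 and 64.3 in the highest (mean 54.5 ± 6.62, SD, n = 8). Its level lay above 87.6% of the detected genes with a known length. In CPM it ranged from 123 in replicate 7 to 179 in replicate 4 (mean 151 ± 18.4). Its replicate coefficient of variation of 12.1% was about as low as that of S1PR2, and above the 1.31% that counting error alone would give.

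S1PR3 and S1PR2, which signal through Gq and G12/13 as well as Gi or in its place, were far lower. S1PR3 (chromosome 9, 91606362 to 91619925, plus strand) had 0.967, 1.16 and 1.28 RPKM in its lowest, median and highest library, which lay above 8.13% of detected genes. S1PR2 (chromosome 19, 10332109 to 10341948, minus strand) had 0.578, 0.708 and 0.839 RPKM, above 4.37% of detected genes. Neither gene's values came near those of S1PR1 in any library. In CPM their coefficients of variation of 8.504% and 12.7% were little above their counting errors of 7.16% and 9.93%. The source of their spread was not tested. S1PR3 overlaps C9orf47 in the table, a gene with a mean of 0.107 CPM, and S1PR2 overlaps MIR4322, which had 0 counts. In the annotation S1PR2 also shares 69 exon bases on the same strand with DNMT1, which had 269 CPM on average; how reads there were assigned is not given in the sources used here.

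Among all 5 S1P receptors, S1PR1 made up 95.8% ± 0.624 of the summed RPKM, S1PR3 2.05% ± 0.197 and S1PR2 1.28% ± 0.185 (SD, n = 8). S1PR4 and S1PR5 were not detected, at 0.645 and 0.176 CPM. The within-library log2 ratio of (RPKM + 0.1) was 5.43 ± 0.15 for S1PR1 to S1PR3 and 6.06 ± 0.19 for S1PR1 to S1PR2. S1PR3 exceeded S1PR2 by 0.62 ± 0.16 in 8 of 8 libraries. That last order held on the authors' CQN-normalised values (0.74 ± 0.27) but turned to -0.81 ± 0.15 when all exons annotated to each gene were counted as its length. The S1PR3 annotation then spans 13702 bases instead of 4330.

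LPAR1 is the broadly expressed LPA receptor that couples to Gi, Gq and G12/13. LPAR1 (chromosome 9, 113636054 to 113800365, minus strand; 6 exons) had 1.41, 2.60 and 3.18 RPKM in its lowest, median and highest library (mean 2.45 ± 0.691, SD, n = 8). Replicates 2 and 8 were low, at 5.41 and 5.39 CPM, and did not overlap the other 6, which held 9.32 to 12.2 CPM. In CPM, these were the 2 lowest libraries for 29.8% of all detected genes. LPAR1 made up 24.1% ± 6.25 of the RPKM summed over the 6 LPA receptors, with 15.1% in replicate 2 and 33.0% in replicate 5. LPAR6, a receptor that couples to G12/13, held 58.4% ± 5.32 and LPAR2 held 15.1% ± 3.71, while LPAR3, LPAR4 and LPAR5 were not detected. LPAR6 overlaps 1 other gene of the table, so its reads could have been assigned in part to that gene. With all annotated exons as length, the LPAR1 share was 36.6%.

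F2R (PAR1) is the main thrombin receptor of endothelium, and F2RL1 (PAR2) is cut by trypsin-like proteases. F2R (chromosome 5, 76011868 to 76031595, plus strand; 2 exons) had 72.6 CPM in its lowest library, a median of 124 and 149 in its highest (mean 117, coefficient of variation 24.001%, n = 8). F2RL1 (chromosome 5, 76114833 to 76131140, plus strand; 2 exons) had 22.2, 40.6 and 45.5 CPM (mean 37.4 ± 8.73). For both genes replicate 8 was lowest and replicate 2 next lowest, and neither library overlapped the other 6. The same libraries were the 2 lowest in CPM for 29.8% of all detected genes. In RPKM the means were 31.3 ± 7.51 for F2R and 13.1 ± 3.05 for F2RL1.

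Although both levels moved between libraries, their ratio moved little. The log2 ratio of F2R to F2RL1 was 1.26 ± 0.16 in 8 of 8 libraries, between 0.94 in replicate 5 and 1.495 in replicate 6, and the values in replicates 2 and 8 (1.28 and 1.32) lay inside the range of the others. F2R made up 70.0% ± 2.38 and F2RL1 29.2% ± 2.37 of the RPKM summed over the 4 protease-activated receptors. F2RL2 and F2RL3 were not detected and made up 0.461% ± 0.102 and 0.343% ± 0.143.

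ADORA2A and ADORA2B both couple to Gs, with high and low affinity for adenosine. They differed in which libraries were high. ADORA2A (chromosome 22, 24823530 to 24838325, plus strand; 3 exons) was highest in replicates 2 and 8, at 10.7 and 10.2 CPM (95% exact Poisson intervals 9.79 to 11.7 and 9.23 to 11.2). In replicates 1, 3, 4, 5, 6 and 7 it had 4.37, 3.96, 4.74, 4.09, 4.42 and 4.798 CPM. The 2 high libraries did not overlap the other 6, and the gap was beyond counting error, which the intervals cover. Replicates 2 and 8 were the 2 highest libraries in CPM for 33.7% of all detected genes, and the 2 lowest for 29.8%. ADORA2B (chromosome 17, 15848231 to 15879210, plus strand; 2 exons) had 10.9 and 11.9 CPM in replicates 2 and 8, its 2 lowest values, and 12.7 to 18.8 CPM in the others.

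The log2 ratio of ADORA2B to ADORA2A was 2.05 ± 0.78 on RPKM + 0.1 and was above 0 in 8 of 8 libraries. It was 0.74 in replicate 2 and 0.95 in replicate 8, and between 2.10 and 2.82 in the other 6. ADORA2A thus made up 34.9% and 31.6% of the RPKM of the 4 adenosine receptors in replicates 2 and 8, and 11.5% to 17.7% in the others. ADORA2B made up 76.2% ± 10.2 (SD, n = 8), while ADORA1 and ADORA3 were not detected (1.44 and 0.136 CPM). The SPECC1L-ADORA2A readthrough transcript shares 2380 exon bases with ADORA2A. The antisense gene C22orf45 also overlaps ADORA2A, and the use of strand in counting is not given in the sources used here. C22orf45 had 0.4995 ± 0.125 CPM, and SPECC1L had 117 and 109 CPM in replicates 2 and 8, against a mean of 136 over all 8.

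**Figure D2:**
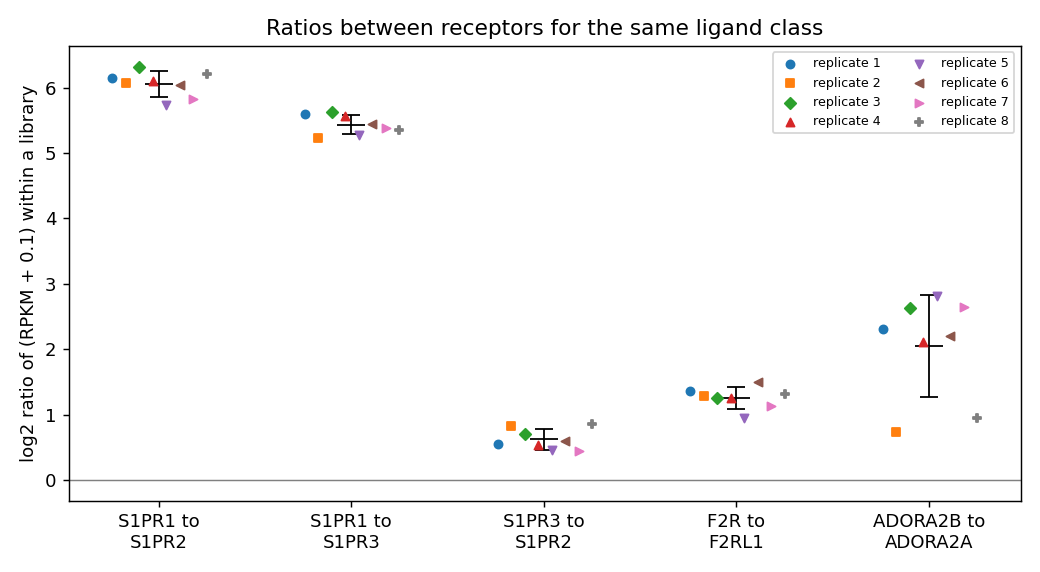
Within-library log2 ratio of (RPKM + 0.1) for 5 pairs of receptors of the same ligand class, with 1 symbol per replicate library and black bars for the mean ± SD of 8 libraries. The ratios of S1P and protease-activated receptors are tight, while ADORA2B to ADORA2A falls to 0.74 and 0.95 in replicates 2 and 8.

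EDNRB and EDNRA share the peptide endothelin; in vessels EDNRB is the endothelial form that triggers nitric oxide release, and EDNRA is best known from smooth muscle. EDNRB (chromosome 13, 78469616 to 78549664, minus strand; 7 exons) had 1, 4, 1, 3, 0, 0, 1 and 3 read pairs in replicates 1 to 8. The pooled level over the 8 libraries was 0.0418 CPM (13 read pairs; 95% exact Poisson interval 0.0222 to 0.0714). With 3 read pairs taken as the limit that a count of 0 allows, the limits in replicates 5 and 6 were 0.0777 and 0.0840 CPM. The upper ends of the exact Poisson intervals there were 0.0956 and 0.103 CPM. These limits, like all intervals here, cover counting error only. The authors gave EDNRB no CQN-normalised value. EDNRA was detected at 9.42 ± 1.87 CPM and made up 99.6% ± 0.357 of the RPKM of the pair. The mural marker genes lay beside it at a summed 163 to 189 CPM, of which ANPEP gave 115 CPM and CSPG4 32.9 CPM on average. PDGFRB had 9.57 ± 1.63 CPM, while DES, NOTCH3 and KCNJ8 were at 0.180, 0.508 and 0.0272 CPM; the part of such cells in the EDNRA level was not tested.

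HRH1 is the Gq-coupled receptor behind the leakage that histamine causes. HRH1 (chromosome 3, 11178779 to 11304939, plus strand; 2 exons, 1 of them coding) had 21.8, 31.3 and 37.02 CPM in its lowest, median and highest library (mean 30.4 ± 5.40, SD, n = 8). Replicates 2 and 8 were lowest at 21.8 and 23.2 CPM and did not overlap the others, at 30.1 to 37.02 CPM. They were the 2 lowest libraries in CPM for 29.8% of all detected genes. On the authors' CQN-normalised values replicate 2 stayed lowest at 4.96. Replicate 8, at 5.15, lay above replicates 1, 4 and 6 (5.05, 5.10 and 5.04). HRH1 made up 97.3% ± 0.614 of the RPKM of the 4 histamine receptors. HRH2, HRH3 and HRH4 were not detected.

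**Figure D3:**
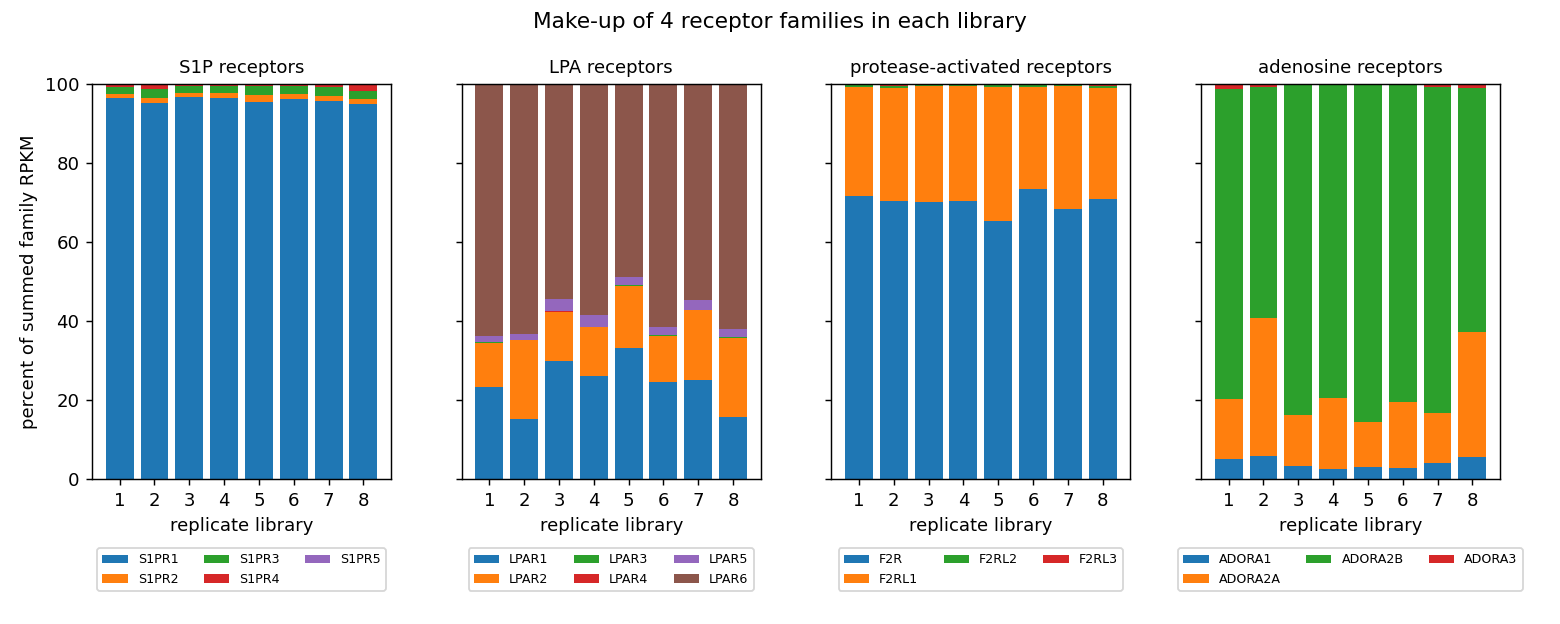
Percent of the summed RPKM of each receptor family (vertical axis) in each of the 8 replicate libraries (horizontal axis), with 1 colour per receptor. S1PR1 fills 94.95% to 96.6% of its family in every library, and the ADORA2A band is widest in replicates 2 and 8.

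The order of the receptors was tested on all 45 pairs by flipping the signs of the within-library log2 ratios in every possible way (an exact permutation test, two-sided), adjusted by Benjamini-Hochberg over the 45. In 44 pairs the ratio differed from 0 beyond the spread between libraries, at exact permutation adjusted p-values of 0.00818 to 0.0160. With 8 libraries the smallest raw p that this test can give is 0.00781. The pairs with EDNRB were all but bound to pass, because each other receptor had at least 1 CPM in every library. The size of their ratios rested on the 0.1 added before the log. S1PR1 to EDNRB was 8.96 with it, 11.6 with 0.01 added and 5.77 with 1 added. The order was the same in 8 of 8 libraries for 43 pairs. LPAR1 and ADORA2A, neighbours in the order, were the pair that did not pass. Their log2 ratio was 0.12 ± 1.01, from -1.52 in replicate 2 to 0.96 in replicate 3 (exact permutation adjusted p = 0.758, n = 8), which leaves a difference in either direction possible. The ratio was below 0 in replicates 2 and 8 and above 0 in the other 6.

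Some neighbours in the order depended on how length was handled. S1PR1 exceeded F2R by 0.83 ± 0.30 (log2 RPKM + 0.1) and by 0.70 ± 0.17 on the authors' values, in 8 of 8 libraries each. With all annotated exons as length the ratio was 0.01 ± 0.30 and no longer passed (exact permutation adjusted p = 0.906, n = 8). ADORA2B exceeded HRH1 by 0.50 ± 0.14 on RPKM in 8 of 8 libraries, but by -0.27 ± 0.35 on the authors' values, which was above 0 in 2 of 8 (exact permutation adjusted p = 0.0563, n = 8). F2RL1 exceeded ADORA2B by 0.45 ± 0.32 in 7 of 8 libraries, with -0.02 in replicate 8. ADORA2A exceeded S1PR3 by 0.85 ± 0.55 in 8 of 8 libraries on RPKM, but by 0.12 ± 0.56 in CPM, where it was above 0 in 3 of 8 (exact permutation adjusted p = 0.531, n = 8).

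In edgeR's test no receptor was called as varying between libraries more than detected genes of similar abundance. When each gene's deviance was set against the dispersion trend of edgeR, 0 of the 9 detected receptors had an adjusted p-value under 0.05, against 4.66% of the 11980 genes tested. Of the 9, ADORA2A alone was under 0.05 without adjustment (edgeR adjusted p = 0.0982), against 1572 of the 11980 genes tested. When replicate 2 was left out, no receptor was under 0.05 without adjustment, against 1482 of 12005 genes tested. With the DESeq2 fitted trend in place of edgeR's, 2 of the 9 receptors passed, against 2811 of the 11980 genes tested. The 2 receptors were ADORA2A (adjusted p = 1.90e-04) and LPAR1 (adjusted p = 0.0421). The largest coefficients of variation among detected receptors were 47.7% for ADORA2A and 28.2% for LPAR1, and the smallest was 8.504% for S1PR3.

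The receptors' swings followed the same libraries as much of the transcriptome. In CPM, replicates 2 and 8 were the 2 lowest libraries for LPAR1, F2R, F2RL1, ADORA2B and HRH1, that is 5 of 9 receptors, against 29.8% of detected genes. They were the 2 highest for ADORA2A, 1 of 9, against 33.7%. On the authors' CQN-normalised values they were lowest for S1PR2, LPAR1, F2R, F2RL1 and ADORA2B, against 22.3% of genes, and highest for S1PR3 and ADORA2A, against 26.6%. This description was chosen after the values were seen.

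A joint curved fit of each library's deviations on transcript length and GC content, separate from the slopes above, predicted a trend for each receptor. For ADORA2A this trend was 0.37 in replicate 2 and 0.47 in replicate 8, against measured log2 deviations of 0.96 and 0.89. Subtracting the trend left 0.59 and 0.42. For ADORA2B the predicted trend was of opposite sign to its deviations of -0.37 and -0.23, and subtracting it left -0.66 and -0.68. With the trends given to edgeR as offsets, the edgeR adjusted p was 1 for ADORA2A, 0.137 for ADORA2B and 0.280 for F2RL1. ADORA2B and F2RL1 were then the 2 receptors of 9 under 0.05 without adjustment, against 1464 of 11980 genes tested. After adjustment 0 of 9 were called, against 790 of those genes.

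The CQN-normalised ranges show how much of each swing remained after the authors' adjustment. ADORA2A ranged from 3.13 to 4.00 with a median of 3.25, and replicates 2 and 8 (4.00 and 3.82) remained apart from the other 6, whose highest value was 3.33. ADORA2B ranged from 4.26 to 5.39 with a median of 4.96, the widest range of the 9, and replicates 2 and 8 (4.26 and 4.29) were apart from the others, which started at 4.92. F2R narrowed from an SD of 0.38 on log2(CPM + 0.1) to 0.21, and LPAR1 from 0.47 to 0.34. ADORA2B widened from 0.28 to 0.42. The median SD of the 9 receptors was 0.28 in log2(CPM + 0.1) and 0.21 on the authors' values, beside 0.28 and 0.16 over all 11980 detected genes.

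**Figure D4:**
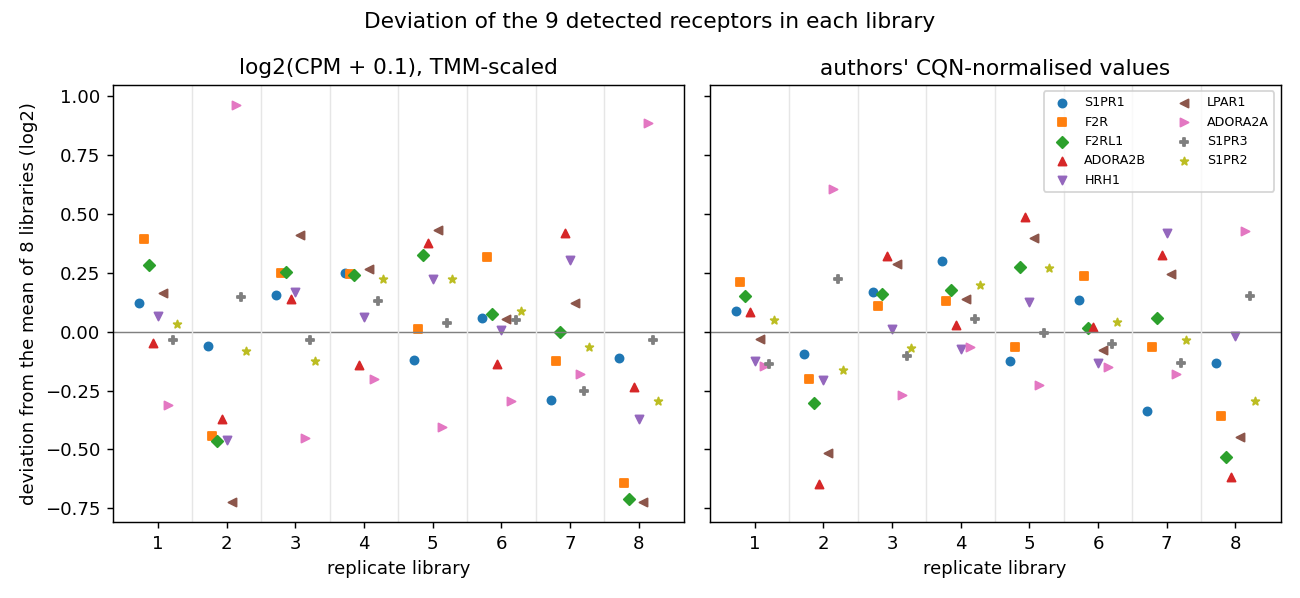
Deviation of the 9 detected receptors from their own mean over 8 libraries (log2, vertical axis) in each replicate library (horizontal axis), in CPM on the left and on the authors' CQN-normalised values on the right. In replicates 2 and 8 ADORA2A lies above 0 and LPAR1, F2R, F2RL1 and ADORA2B lie below it in both panels.

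The genes most alike each receptor over the 8 libraries were taken as the 2 detected genes with the highest Pearson's r, a description over 8 points that share library effects. In log2(CPM + 0.1), r was 0.998 for F2R with CD46 and with MTF1, 0.995 for F2RL1 with SENP2, 0.998 for ADORA2A with ACTR1B and 0.995 for LPAR1 with MTAP. For S1PR1 the closest was ZNF470 at 0.953, for S1PR2 WNT7B at 0.969, for S1PR3 PHF7 at 0.924, for ADORA2B CCT6A at 0.986 and for HRH1 PKP1 at 0.989. On the CQN-normalised values the closest genes were different ones. They were NPTN for F2R (0.992), DOPEY2 for F2RL1 (0.995), MTIF3 for ADORA2A (0.990), DPH2 for LPAR1 (0.998) and MLKL for S1PR1 (0.963). ADORA2B was closest to the cationic amino acid carriers SLC7A2 (0.996) and SLC7A1 (0.991). For none of the 9 receptors was another receptor of the set among its 2 closest genes on either scale.

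The genes that supply the receptors' ligands and carry their signals were described from lists of 174 further genes. Of these, 120 were detected (68.97%, against 51.3% of all genes), and 11 of the 120 lay above the variation trend (9.17%, against 4.66% of genes tested). The lists were also chosen with earlier results of these data known, so both contrasts are descriptions only. Of the remaining 15 members of the 6 receptor families, LPAR6, LPAR2 and EDNRA were detected. Of 18 other receptors linked to permeability, 8 were detected, among them PTGER4, a prostaglandin E2 receptor (18.6 ± 4.71 RPKM), and CALCRL (11.8 ± 4.50). CALCRL, the adrenomedullin receptor, had 31.2 CPM in its lowest library, replicate 2, and 111 CPM in replicate 3, and varied above the trend (edgeR adjusted p = 0.0380).

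On the ligand side, 9 of 13 genes for S1P and LPA supply were detected. The kinase SPHK1, which makes S1P, had 25.99 ± 10.1 RPKM and ranged from 27.4 CPM in replicate 1 to 87.3 CPM in replicate 7. The lipid phosphatases PPAP2C and PPAP2A, which degrade LPA and S1P outside the cell, had 23.4 ± 5.00 and 10.3 ± 1.03 RPKM. No gene of this list lay above the trend in edgeR's test (0, with SPHK1 alone under 0.05 without adjustment). ENPP2 (autotaxin), which makes LPA, was not detected at 0.141 CPM, nor were SGPP2, MFSD2B and APOM.

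Of 11 protease and thrombin control genes, 6 were detected. They were led by TFPI, an inhibitor of tissue factor (75.5 ± 8.30 RPKM), PROCR (70.5 ± 19.1) and THBD (33.2 ± 10.4), the last 2 being the receptors that turn thrombin towards protein C activation. F2, F7, F10, PROC and ST14 were not detected. All 7 adenosine genes were detected, with the nucleoside carrier SLC29A1 at 155 ± 18.5 RPKM, the ectonucleotidase NT5E at 57.3 ± 12.9 and ADK at 25.8 ± 2.75. Endothelin supply was detected for 4 of 5 genes, with EDN1 at 234 ± 69.2 RPKM and the converting enzyme ECE1 at 158 ± 12.3 and ECE2 at 1.65 ± 0.368, while EDN3 was not. None of the 3 histamine genes (0 of 3) was detected, and HDC, HNMT and ABP1 had 0.00605, 0.379 and 0.0198 CPM.

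Among 13 G protein alpha subunits, 9 were detected. GNAS, the Gs subunit, had 473 ± 94.0 RPKM, GNAI2 had 336 ± 98.1 and GNA12 had 32.4 ± 1.46. GNAO1, GNAZ, GNA15 and GNAL were not detected. GNAQ, the Gq subunit, had 12.9 CPM in replicate 8 and up to 80.1 CPM in replicate 4, and lay above the trend (edgeR adjusted p = 1.14e-06).

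All 16 genes of the RHOA and ROCK arm were detected, led by RHOA at 508 ± 32.5 RPKM, MYL12A at 441 ± 120 and MYL12B at 416 ± 111. The kinases ROCK1 and ROCK2, which phosphorylate myosin light chain regulators, were lowest in replicate 8, at 24.01 and 19.5 CPM, and each reached 131 CPM in replicate 3. Both lay above the trend (edgeR adjusted p = 1.26e-05 and 1.90e-07), as did the exchange factor ARHGEF12 (0.0260). Of 19 Rac and Rap1 genes, 15 were detected, led by RAC1 (225 ± 21.96 RPKM), CTTN (103 ± 6.08) and IQGAP1 (80.6 ± 27.2). TIAM1, VAV3, ARHGEF4 and RADIL were not, and the Rap1 activators RAPGEF2 and RAPGEF6 lay above the trend (edgeR adjusted p = 0.0359 and 0.0122).

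In the phospholipase C and calcium arm 13 of 16 genes were detected, with the calcium release channel ITPR3 at 51.8 ± 13.5 RPKM and PLCB3 at 23.5 ± 3.89. PLCB4, TRPC6 and PRKCB were not, and ITPR1 and ITPR2 lay above the trend (edgeR adjusted p = 0.0445 and 0.00388). In the cyclic AMP arm 17 of 23 were detected, led by AKAP12 (74.8 ± 27.3 RPKM), VASP (65.4 ± 21.3) and PRKAR1A (60.5 ± 14.3). AKAP12 and PRKAR2A lay above the trend (edgeR adjusted p = 0.0294 and 3.35e-06). Of 15 desensitisation genes 13 were detected, led by RGS10 (69.1 ± 14.9 RPKM), RGS4 (48.5 ± 13.2) and ADRBK1 (34.8 ± 12.3), and 0 lay above the trend in edgeR's test or at an unadjusted p under 0.05. RGS2 and RGS16 were not detected.

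Of the 11 pathway genes above the trend, 9 were lowest in replicate 8. The share of all detected genes that were lowest in replicate 8 is not given here, so the 9 have no direct background. In CPM, replicates 2 and 8 were the 2 lowest libraries for 29.8% of all detected genes. Replicate 8 also had the steepest length slope (-0.34), but a link between that slope and the low values was not tested. With each library's length and GC trend given as offsets, 6 of the 11 remained above the trend, namely AKAP12, GNAQ, PRKAR2A, RAPGEF2, ROCK1 and ROCK2. Other pathway genes came above it with the offsets, which made 14 in all. Over all genes tested the number rose from 558 to 790. Without offsets, single libraries decided several of the 11 calls above the trend. Without replicate 2, AKAP12, ARHGEF12, CALCRL, ITPR1, RAPGEF2 and RAPGEF6 were no longer above it, and without replicate 8 AKAP12, ARHGEF12, ITPR1 and RAPGEF2 were not. ITPR1 fell short without any one of the 8, CALCRL also without replicate 3, 4, 5 or 6, RAPGEF2 without replicate 1, 4, 5 or 6, and AKAP12 without replicate 5. GNAQ, ITPR2, PRKAR2A, ROCK1 and ROCK2 remained above the trend without each of the 8 replicates in turn.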

How the data were processed

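Polyadenylated RNA of 8 hCMEC/D3 replicates was sequenced from TruSeq v2 libraries, per the labels' protocols. The submitters' processing notes name CASAVA 1.9, TopHat2 2.0.6, HTSeq and hg19, with no settings; use of strand is not given in the sources used here. The authors deposited raw counts and CQN-normalised values per the file headers. The deposited counts are whole and even in all 186768 cells, with 0 odd. The CQN-normalised values were made by the authors and are log2 as judged from their range; 9384 genes have none. All 16 per-sample columns were matched to samples, with 0 others. Table starts count from 0 and are printed 1-based on GRCh37 (hg19).

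CPM used TMM-scaled library sizes (edgeR 4.0.16, R 4.3.3). RPKM used the canonical transcript in GENCODE 44 lifted to GRCh37, matched for 21456 genes. Variation was tested by the goodness of fit of an intercept-only model to edgeR's dispersion trend over 11980 detected genes, adjusted by Benjamini-Hochberg, and checked on simulated data. The quasi-likelihood comparison did not apply to 1 group. Ratios used log2(RPKM + 0.1) and exact sign-flip permutation over 256 patterns. DESeq2 1.42.0 served as an alternative.

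Receptors and gene lists were chosen with earlier results of these data known. Named genes were the 10 receptors, the 3 highest of each list, undetected members where 5 or fewer, up to 5 above the trend, and the 2 most alike genes per receptor. Genes that overlap a receptor were named after their values were seen. Some genes that the rule names are not reported here. Read pairs per library were 34694272 to 45102622, so 1 read pair was under 0.03 CPM. Alternatives are given in the closing section.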

Additional observations from a re-analysis of the deposited data

How the results depend on the processing

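All 9 receptors stayed detected, and 44 of 45 pairs past the threshold, without each replicate in turn; 0 receptors lay above the variation trend without any of them. Genes above the trend numbered 558 of 11980 tested, between 381 and 491 without each replicate, and 335 without replicates 2 and 8 together (chosen after seeing the data). With the DESeq2 trend they numbered 2811 of 11980, and 2 of 9 receptors were called. The cause was not tested. A minimum of 10 counts in every library raised the genes that passed from 11980 to 14671 of 23346. Detected members then moved to 4 of 4 protease-activated receptors, 2 of 4 histamine receptors, 9 of 15 remaining family members and 1 of 3 histamine supply genes. All exons as length moved mean RPKM to 28.99 for S1PR1, 0.366 for S1PR3 and 6.12 for ADORA2B by its own construction. It moved family shares to 94.9% for S1PR1, 2.38% for S1PR2, 1.21% for S1PR3 and 36.6% for LPAR1. S1PR3 to S1PR2 turned to -0.81, and S1PR1 to F2R fell to 0.01, with all exons as length. ADORA2B to HRH1 turned to -1.08 in CPM and -0.27 on CQN-normalised values. LPAR1 to ADORA2A was between -6.85e-04 (without replicate 3) and 0.35 (without replicate 2) without single replicates, 0.41 on CQN-normalised values, 0.69 with all exons as length and 0.71 in CPM, and passed in none of these. Without replicates 2 and 8 together, the libraries with ratios below 0, it was 0.65; this choice was made on the values, so no test is given. ADORA2A to S1PR3 was 0.12 in CPM and no longer past the threshold. No paired analysis was possible because all samples form 1 group. Depth weighed most on EDNRB, S1PR2 and S1PR3, whose counting errors were 78.4%, 9.93% and 7.16%. ADORA2A and LPAR1 followed at 6.49% and 5.28%.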
